A study of Homo sapiens with 6 samples.

Results

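Interferon-stimulated genes are genes whose transcription rises when a cell senses an interferon, and 44 of them, taken by symbol from the count table, were followed in H9 cells upon inhibition of CDK9. H9 is an established cell line of cutaneous T-cell lymphoma (CTCL), a malignancy of skin-homing T cells, and AZD4573 is a selective inhibitor of CDK9, the kinase that releases paused RNA polymerase II into elongation. The study treated wild-type H9 cells with the vehicle DMSO (3 libraries) or with AZD4573 (3 libraries), and sequenced bulk RNA to find the transcripts that depend on CDK9. The dose was 50 nM, and the labels give 4 h for the AZD4573 libraries and no time for the DMSO libraries, whereas the discussion of the study gives 6 h. The labels do not say whether the libraries came from separate cultures, so that the p-values below measure only the spread between these libraries of a single cell line, which may be technical. All 44 members were among the 61541 Ensembl genes of the table, and 41 passed the filter on low counts.

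As background, type I and type III interferons act through receptors that carry the kinases JAK1 and TYK2, and these lead to the factor ISGF3, whose parts include STAT2 and IRF9 and which binds the interferon-stimulated response element (ISRE) in the promoters of its targets. Interferon-γ has a receptor of its own and acts on gamma-activated sites (GAS). The targets include proteins that sense foreign RNA, block viral entry, degrade or edit RNA, and attach ubiquitin-like tags to proteins, and unstimulated cells hold many of them at a tonic level.

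The ISRE is a repeat that can be read in the promoters of the members themselves. Promoter windows of 250 bases before and 50 bases from the annotated start were taken from RefSeq (GRCh38.p14) and matched 35 of the 44 members by symbol. The ISRE core GAAANNGAAA, searched on both strands, occurred in 22 of these 35 windows (62.9%), compared with 3.65% of all 27305 promoters of the same length. The GAS core TTCNNNGAA, which reads the same on both strands, occurred in 8 (22.9%) compared with 7.88%, and TATAAA, searched on both strands, in 5 (14.3%) compared with 11.95%. In 3 windows, those of BST2, IFI27 and IFITM1, an ISRE core match overlapped a GAS core match. No window was held for IFIT2, IFITM2, MX2, OAS2, OASL, GBP2, TRIM22, USP41 or DHX58. The windows of 5 members are shown from 200 bases before the start to 10 bases from it, 5′ to 3′ on the strand of the gene, because they are the members with an ISRE core whose transcripts fell the most (IFIT3, IFIT5 and SAMD9) or were among the most abundant (ISG15 and IFITM1). Capitals mark the ISRE core, which reads as TTTCNNTTTC where it lies on the other strand. The windows lie at chr10:89327797-89328006 (plus strand, IFIT3), chr10:89414368-89414577 (plus strand, IFIT5), chr7:93117970-93118179 (minus strand, SAMD9), chr1:1013297-1013506 (plus strand, ISG15) and chr11:313840-314049 (plus strand, IFITM1).
IFIT3: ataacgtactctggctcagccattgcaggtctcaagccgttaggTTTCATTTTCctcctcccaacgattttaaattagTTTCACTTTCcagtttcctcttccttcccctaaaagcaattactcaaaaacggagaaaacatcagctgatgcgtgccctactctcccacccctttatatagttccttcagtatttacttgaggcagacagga
IFIT5: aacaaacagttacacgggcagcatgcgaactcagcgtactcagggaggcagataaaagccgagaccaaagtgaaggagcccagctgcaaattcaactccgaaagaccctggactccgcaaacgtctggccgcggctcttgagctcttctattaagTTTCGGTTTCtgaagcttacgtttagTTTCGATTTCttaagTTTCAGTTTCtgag
SAMD9: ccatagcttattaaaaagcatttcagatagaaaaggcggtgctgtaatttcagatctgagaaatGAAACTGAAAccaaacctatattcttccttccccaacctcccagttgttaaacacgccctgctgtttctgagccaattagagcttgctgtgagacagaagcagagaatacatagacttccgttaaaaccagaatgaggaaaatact
ISG15: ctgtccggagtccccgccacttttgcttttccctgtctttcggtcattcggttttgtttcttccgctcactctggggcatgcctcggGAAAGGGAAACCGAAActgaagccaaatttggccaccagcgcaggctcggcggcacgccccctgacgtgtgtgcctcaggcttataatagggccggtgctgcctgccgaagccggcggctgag
IFITM1: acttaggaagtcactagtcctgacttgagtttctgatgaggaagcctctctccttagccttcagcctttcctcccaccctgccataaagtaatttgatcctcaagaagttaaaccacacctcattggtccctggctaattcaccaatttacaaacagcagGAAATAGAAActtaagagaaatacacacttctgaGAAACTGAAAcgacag
IFIT5 held 3 cores, the one nearest to the start lying across it, and IFIT3 held 2 farther upstream. ISG15 held 2 cores that share their middle GAAA, and IFITM1 held 1 core 40 bases before the start and 1 across it. SAMD9 held 1 core, 136 bases before the start. A match describes letters in a window and does not show that a factor was bound there.

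Total counts ranged from 70367303 to 76571157 with DMSO and from 52101868 to 63795185 with AZD4573, where 3 counts correspond to 0.0382 to 0.059 CPM. CPM here are counts per 1000000 counts after scaling by TMM, which sets library sizes so that most genes do not differ. In bulk RNA, fewer cells with a transcript and less of it per cell cannot be told apart. Of 11 T-cell markers, 10 were at 1 CPM or more on average over the 6 libraries, and CD2, at 4 to 13 counts with DMSO and at 0 or 1 with AZD4573, was nearly absent. The summed T-cell markers were at 1496 to 1517 CPM with DMSO and at 1742 to 1778 CPM with AZD4573. The summed B-cell markers, of which 2 of 6 reached 1 CPM, were at 61.0 to 67.1 and at 92.5 to 103 CPM, mostly from CD79A. The epithelial or fibroblast list had 2 of 5 markers at 1 CPM (EPCAM and COL1A1), and its sum was at 156 to 172 and at 136 to 141 CPM. The monocyte, plasmacytoid dendritic cell and NK-cell lists, of 7, 3 and 4 markers, had none at 1 CPM by this average, and their sums lay under 0.50 CPM with DMSO and under 2.1 CPM with AZD4573. CD163, S100A8 and NCR1 were at 0 counts in every library, and MPO, on the monocyte list, went from 0 counts in every DMSO library to 41 to 82 counts with AZD4573, where it reached 1.11 CPM on average. The part of these markers in the results below was not tested. The 13 mRNAs of the mitochondrial genome, which RNA polymerase II does not transcribe, took 3.04 to 3.22% of the counts with DMSO and 4.67 to 4.98% with AZD4573. When the libraries were scaled to these mRNAs, the middle of all tested genes shifted from 0.03 to -0.71 on the log2 scale, so that each direction below is given relative to TMM, with the exceptions named.

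At baseline, H9 cells held the interferon-stimulated genes at levels that spanned several orders of magnitude. To compare genes with each other, counts were divided by the length of each gene's merged exons and scaled to the same sum in each library, which is called the length-scaled level. The median member had a length-scaled level of 10.9 with DMSO, beside 9.97 for all genes tested, and 24 of the 44 members lay above the latter. At the top stood IFITM1, a membrane protein that hinders the fusion of viruses with the cell, at 1211 ± 22.5 (SD, n = 3), which was 40.1% of the summed length-scaled level of all members. Its paralog IFITM2 followed at 373 ± 2.44 (SD, n = 3), whereas IFITM3, the third of these neighbouring genes, was at 1.84 ± 0.201 (SD, n = 3). BST2, also called tetherin, which holds budding virus particles at the cell surface, had a length-scaled level of 213 ± 4.90 (SD, n = 3). The ubiquitin-like modifier ISG15 was at 210 ± 14.8 (SD, n = 3) and did not differ from BST2 beyond the spread of the libraries. The DNA sensor IFI16 was at 134 ± 2.15 (SD, n = 3), and the guanylate-binding GTPase GBP1 was at 105 ± 5.25 (SD, n = 3). These 6 members were the highest by MANE Select transcript length as well, in another order from the third place on, with ISG15 at 186, IFI16 at 159, BST2 at 152 and GBP1 at 144. By that length IFITM1 was at 1961, or 51.8% of the sum over the 42 members with a MANE Select transcript, and IFITM3 at 5.57.

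In total, 12 members had a length-scaled level of at least 50 with DMSO and 9 were under 1. The 9 low members were IFIT1, IFIT2, IFI27, IFI44L, USP41, TRIM22, MX2, OAS1 and OASL, of which TRIM22 and OAS1 lay above 1 by MANE Select length (1.26 and 2.31). IFIT1, the founding member of a family that binds viral RNA by its unusual end, had 15, 5 and 14 counts with DMSO and 3, 3 and 2 with AZD4573. All AZD4573 libraries thus lay below all DMSO libraries, at counts too low for the filter. IFI44L had 5, 0 and 6 counts with DMSO and 0, 3 and 2 with AZD4573, and USP41, a homolog of the ISG15 protease USP18, had 1 count in a single library of each group. Neither gene was detectable beyond a few counts at this depth, and 80.8% of the 50-base runs of USP41 exons also occur in another gene. All members together took 0.273 to 0.278% of the counts with DMSO and 0.265 to 0.272% with AZD4573. Their summed CPM was 2652 to 2669 with DMSO and 2774 to 2788 with AZD4573, so that the share and the TMM sum moved in opposite directions.

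**Figure D1:**
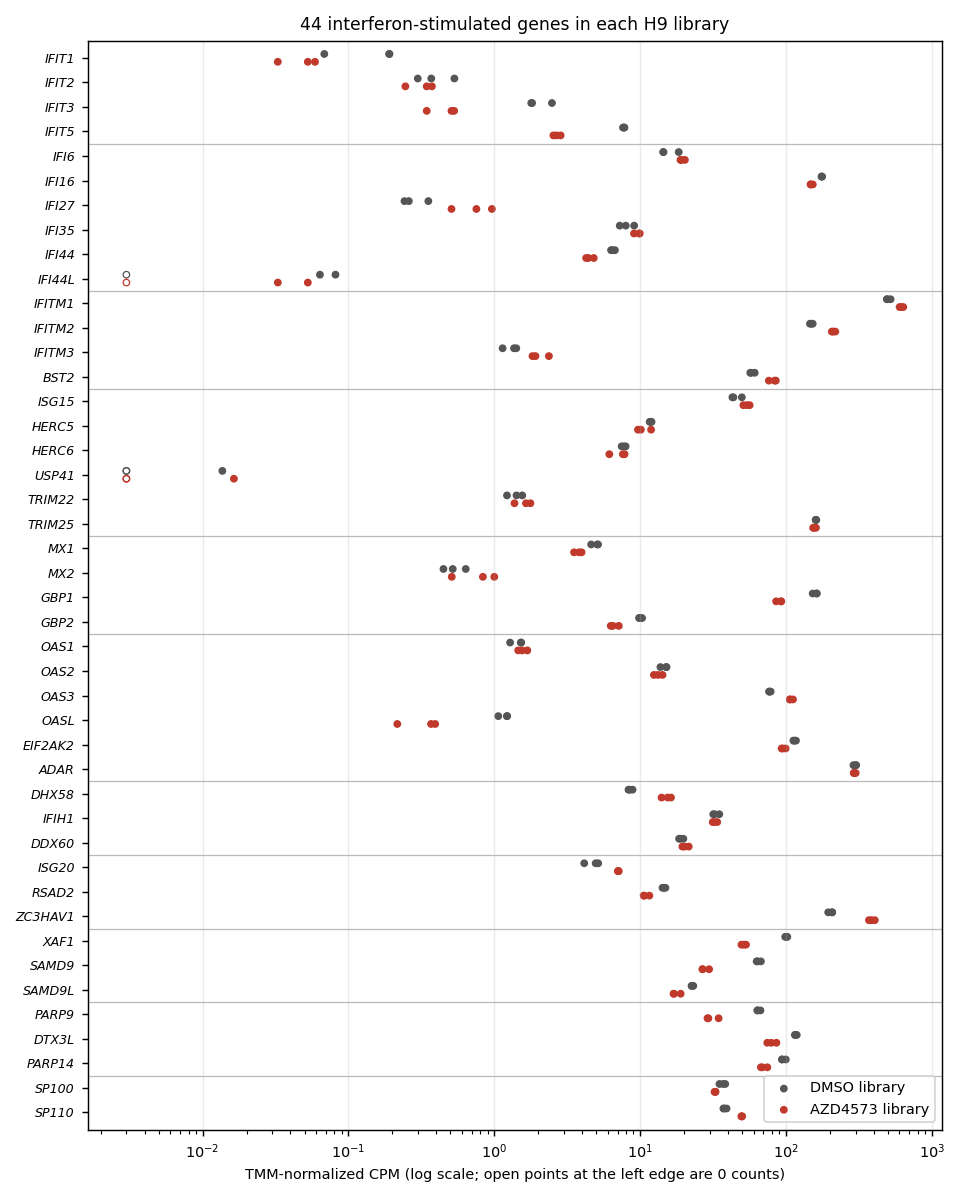
TMM-normalized CPM of the 44 interferon-stimulated genes on a log axis, 1 row per gene and 1 point per library (grey, 3 DMSO libraries; red, 3 AZD4573 libraries; open points, 0 counts), with lines between groups of related function. The levels run from 0 counts in USP41 and IFI44L libraries to 637 CPM for IFITM1, and the red points lie left of all grey ones most widely for IFIT3, OASL and IFIT5.

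The comparison of AZD4573 with DMSO asks which of these transcripts depended on CDK9 activity. A gene was called when its adjusted p was under 0.05 by edgeR's quasi-likelihood test and its fold change was at least 1.5. By this rule 8 of the 41 tested members (19.5%) were lower with AZD4573, beside 23.7% of all 17678 genes tested, and 4 (9.76%) were higher, beside 22.7%. The members called lower were IFIT3, OASL, IFIT5, SAMD9, PARP9, XAF1, GBP1 and GBP2. The members called higher were IFI27, ZC3HAV1, DHX58 and IFITM3, of which no call remained when the libraries were scaled to the mitochondrial mRNAs. At any fold change, 17 members (41.5%) passed the test as lower, beside 37.4% of all genes, 13 (31.7%) as higher, beside 37.3%, and 11 did not pass. Every AZD4573 library lay below every DMSO library for 17 members (41.5%, beside 38.7% of all genes) and above for 12 (29.3%, beside 39%). The shares of members that moved thus lay near those of all genes for the falls and below them for the rises. The median log2 fold change of the 41 members was -0.10, beside 0.03 for all genes. The called gene closest to the fold threshold was GBP2 (size 0.59 on the log2 scale), and the closest one outside it was the exonuclease gene ISG20 (0.58).

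**Figure D2:**
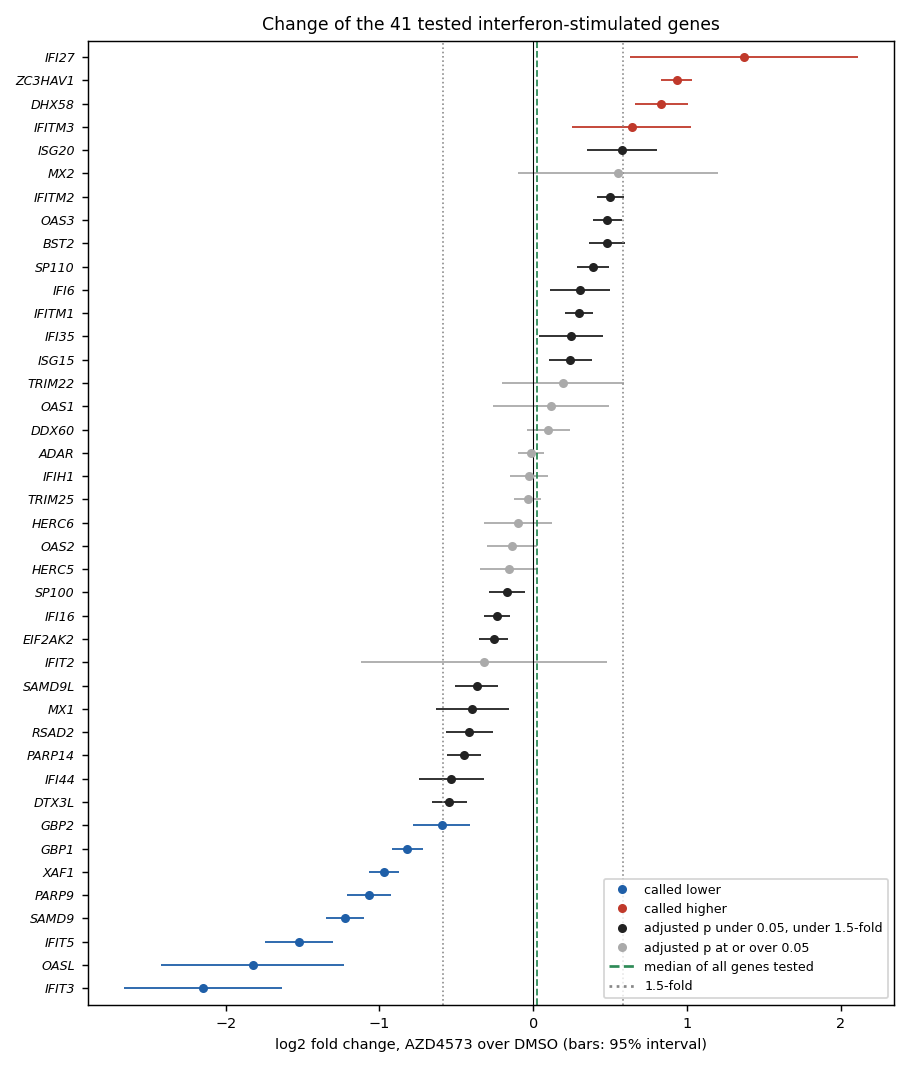
Log2 fold change (AZD4573 over DMSO, TMM scale) of the 41 tested members in order of size, with 95% intervals as bars, the 1.5-fold threshold as dotted lines and the median of all genes tested (0.03) as a dashed line. Values run from -2.15 for IFIT3 to 1.37 for IFI27, whose interval is among the widest, and 29 members lie inside 1.5-fold, while the rises other than ZC3HAV1, DHX58 and IFI27 turned negative when scaled to the mitochondrial mRNAs.

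Among the IFIT genes, which encode RNA-binding proteins that hold back the translation of viral mRNA, 2 of the 3 tested members fell. Of all genes, 37.4% passed the test as lower at any fold. IFIT3 (chr10:89327307-89377473, GRCh38), which binds IFIT1 and stabilizes its complex, was at 2.49, 1.82 and 1.79 CPM with DMSO and at 0.531, 0.509 and 0.344 CPM with AZD4573. All AZD4573 libraries lay far below the lowest DMSO library, and DMSO replicate 1 was the highest. The log2 fold change was -2.15 ± 0.238 (SE, n = 3 and 3; edgeR adjusted p = 2.12e-06), a 4.42-fold fall and the largest of all members tested. IFIT5 (chr10:89414568-89421605), which binds RNA with a triphosphate end, was at 7.81, 7.74 and 7.63 CPM with DMSO and at 2.67, 2.54 and 2.85 CPM with AZD4573. Its DMSO libraries differed by under 0.2 CPM and lay well above the others, and it fell by 1.52 ± 0.102 on the log2 scale (SE, n = 3 and 3; edgeR adjusted p = 1.41e-08). IFIT2 lies next to IFIT3 and was at 0.370, 0.533 and 0.299 CPM with DMSO and at 0.373, 0.246 and 0.344 CPM with AZD4573. Its groups overlapped, and its interval, from -1.12 to 0.48 on the log2 scale, leaves its change unresolved at this depth. IFIT1, with its few counts, could be tested only in some settings, with an edgeR adjusted p of 0.0171 without DMSO replicate 2, its lowest DMSO library, and of 0.0563 to 0.115 without any 1 AZD4573 library or without the filter.

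The oligoadenylate synthetases and the other effectors of double-stranded RNA moved in different directions. OASL (chr12:121017763-121039246), which resembles the synthetases but makes no oligoadenylate and acts with the sensor RIG-I, was at 1.22, 1.07 and 1.22 CPM with DMSO and at 0.216, 0.368 and 0.393 CPM with AZD4573. The groups lay apart, and the log2 fold change of -1.82 ± 0.275 (SE, n = 3 and 3; edgeR adjusted p = 4.09e-05) rested on a low transcript. OAS3, which makes the oligoadenylate that activates RNase L, was at 76.6, 77.1 and 78.6 CPM with DMSO and at 106, 106 and 112 CPM with AZD4573, a rise of 0.48 ± 0.043 on the log2 scale (edgeR adjusted p = 2.45e-07) that turned to -0.26 when scaled to the mitochondrial mRNAs. OAS1 (0.11) and OAS2 (-0.14) did not pass the test, and their groups overlapped. EIF2AK2, the RNA-activated kinase PKR that stops translation, fell by 0.26 (edgeR adjusted p = 0.000125) from 115 ± 2.36 to 95.9 ± 3.16 CPM (SD, n = 3 each). ADAR, which edits adenosine to inosine in double-stranded RNA, was at 298 ± 6.89 and 295 ± 4.87 CPM (SD, n = 3 each), with a 95% interval of -0.10 to 0.07 on the log2 scale. Scaled to the mitochondrial mRNAs, ADAR was at -0.75.

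Regulators of growth and death gave 3 falls among 3 members at any fold, beside 37.4% of all genes. SAMD9 (chr7:93099513-93118023), a restriction factor for poxviruses that also slows growth, was at 63.8, 67.3 and 63.0 CPM with DMSO and at 29.7, 26.8 and 26.8 CPM with AZD4573. Each AZD4573 library held less than every DMSO library by a wide margin, with a log2 fold change of -1.22 ± 0.057 (SE, n = 3 and 3; edgeR adjusted p = 5.14e-10). Its neighbour and paralog SAMD9L, on the same strand 12032 bases away, went from 22.8 ± 0.326 to 17.7 ± 1.13 CPM (SD, n = 3 each), a fall of 0.37 on the log2 scale (edgeR adjusted p = 0.000147). The log2 ratio of SAMD9 to SAMD9L was 1.505 ± 0.031 with DMSO and 0.65 ± 0.151 with AZD4573 (SD, n = 3 each), and the groups lay apart (exact permutation test, two-sided p = 0.1, the smallest that 3 against 3 libraries allow). XAF1 (chr17:6755447-6775647), which counters the apoptosis inhibitor XIAP, was at 98.8, 101 and 102 CPM with DMSO and at 53.2, 51.4 and 49.5 CPM with AZD4573. The groups lay apart by far more than the libraries within them, and the log2 fold change was -0.97 ± 0.046 (SE, n = 3 and 3; edgeR adjusted p = 6.12e-10). XAF1 shares 34.7% of its 50-base runs with other genes, in the first place with the overlapping gene PRAL, and reads of this pair may have been divided between them.

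The PARP9 and PARP14 module comprises PARP9, its partner DTX3L, a ubiquitin ligase, and the ADP-ribosyltransferase PARP14. All 3 passed the test as lower at any fold, beside 37.4% of all genes. PARP9 (chr3:122527924-122564577) was at 63.7, 63.8 and 66.9 CPM with DMSO and at 34.5, 29.4 and 29.0 CPM with AZD4573. AZD4573 replicate 1 was the highest of its group and still well under the lowest DMSO library, and the log2 fold change was -1.07 ± 0.066 (SE, n = 3 and 3; edgeR adjusted p = 6.2e-09). DTX3L is read in the opposite direction from a start that overlaps PARP9 (139 exon bases in common), and it was at 115, 119 and 116 CPM with DMSO and at 86.1, 79.3 and 74.4 CPM with AZD4573, a fall of 0.54 ± 0.053 on the log2 scale (SE; edgeR adjusted p = 5.69e-07). DTX3L reached the fold threshold without AZD4573 replicate 1 (-0.60), without a filter (-0.59) and with library size only (-0.65). The log2 ratio of PARP9 to DTX3L went from -0.85 ± 0.053 to -1.37 ± 0.058 (SD, n = 3 each), so that the genes of this head-to-head pair did not fall to the same extent in these libraries. The counting ignored strand, and reads in the overlap of the pair cannot be assigned to 1 of them. PARP14 fell by 0.45 ± 0.051 (SE; edgeR adjusted p = 2.54e-06), from 95.9 ± 3.32 to 70.2 ± 3.79 CPM (SD, n = 3 each).

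The GTPases of the MX and guanylate-binding families gave 3 falls among 4 members at any fold, beside 37.4% of all genes. GBP1 (chr1:89051882-89065360), which coats intracellular pathogens and is a classical target of interferon-γ, was at 153, 163 and 162 CPM with DMSO and at 92.9, 92.4 and 85.6 CPM with AZD4573. The lowest DMSO library was far above the highest AZD4573 library, and the log2 fold change was -0.82 ± 0.048 (SE, n = 3 and 3; edgeR adjusted p = 3.55e-09). GBP2 (chr1:89106132-89150456), its neighbour, was at 10.3, 9.83 and 9.94 CPM with DMSO and at 6.50, 7.14 and 6.29 CPM with AZD4573. Its groups did not overlap, and it fell by 0.59 ± 0.086 (SE; edgeR adjusted p = 2.73e-05), close to the fold threshold. The call on GBP2 was lost, by the fold alone, without DMSO replicate 1 or AZD4573 replicate 1 (-0.58 each) or AZD4573 replicate 3 (-0.56), and with at least 10 counts required in every library (-0.56). MX1, a dynamin-like GTPase that traps viral nucleocapsids, fell by 0.40 ± 0.111 (SE; edgeR adjusted p = 0.0054), from 4.95 ± 0.291 to 3.77 ± 0.226 CPM (SD, n = 3 each). MX2, which acts at the nuclear pore, was at 0.637, 0.519 and 0.448 CPM with DMSO and at 0.511, 1.00 and 0.836 CPM with AZD4573, and its groups overlapped. Without AZD4573 replicate 1, the lowest of its group, MX2 had a log2 fold change of 0.77 (edgeR adjusted p = 0.0291), compared with 0.55 (0.114) with all libraries.

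The membrane restriction factors, the most abundant group, rose on the TMM scale in all 4 members, and all 4 turned negative when scaled to the mitochondrial mRNAs. On the TMM scale, 37.3% of all genes passed the test as higher at any fold. IFITM1 (chr11:310041-315272) was at 522, 492 and 496 CPM with DMSO and at 616, 602 and 637 CPM with AZD4573. Every AZD4573 library was above every DMSO library, with a log2 fold change of 0.30 ± 0.043 (SE, n = 3 and 3; edgeR adjusted p = 2.48e-05) that became -0.44 under the mitochondrial scaling. IFITM2 (chr11:303655-309397), which acts in endosomes, was at 153, 146 and 149 CPM with DMSO and at 210, 206 and 218 CPM with AZD4573. It rose by 0.50 ± 0.041 (SE; edgeR adjusted p = 1.03e-07), without overlap of the groups, and was at -0.24 under the mitochondrial scaling. IFITM3 (chr11:319676-329475) was at 1.41, 1.37 and 1.14 CPM with DMSO and at 1.83, 2.37 and 1.92 CPM with AZD4573. Its groups lay apart by little, the log2 fold change was 0.64 ± 0.179 (SE; edgeR adjusted p = 0.00547), and under the mitochondrial scaling it was -0.10 (edgeR adjusted p = 0.615). Its call was lost without DMSO replicate 3 (0.54) or AZD4573 replicate 2 (0.51) and with library size as the only scaling (0.54), by the fold alone. The 3 IFITM genes share 21.7 to 35.0% of their 50-base runs with other genes, including each other, so that their separate values are uncertain, in the first place those of the low IFITM3. BST2 (chr19:17402939-17405630) was at 61.1, 56.9 and 57.8 CPM with DMSO and at 76.3, 83.5 and 85.2 CPM with AZD4573. It rose by 0.48 ± 0.053 (SE; edgeR adjusted p = 2.19e-06) without overlap of the groups, and was at -0.26 under the mitochondrial scaling.

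Of the ISG15 system and the ubiquitin ligases, 1 of 5 tested members passed the test, as higher. Of all genes, 37.4% passed as lower and 37.3% as higher at any fold. ISG15 (chr1:1001138-1014540) was at 49.9, 43.6 and 42.9 CPM with DMSO and at 53.9, 51.1 and 56.4 CPM with AZD4573. DMSO replicate 1 came close to the lowest AZD4573 library, yet the groups did not overlap, and the log2 fold change of 0.24 ± 0.064 (SE; edgeR adjusted p = 0.00372) turned to -0.50 under the mitochondrial scaling. With library size as the only scaling, the log2 fold change of ISG15 was 0.14 (edgeR adjusted p = 0.0621). HERC5, the main ligase that attaches ISG15 to proteins, had a log2 fold change of -0.16 with a 95% interval of -0.34 to 0.03, and its relative HERC6 one of -0.10 (interval -0.32 to 0.12). TRIM25, a ubiquitin ligase that acts on RIG-I, was at 161 ± 0.763 and 157 ± 3.61 CPM (SD, n = 3 each), with an interval of -0.12 to 0.05. TRIM22, at 1.40 and 1.60 CPM on average, had the wider interval of -0.20 to 0.59.

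The RNA sensors and helicases gave 1 rise among 3 members at any fold, beside 37.3% of all genes. DHX58 (chr17:42101404-42112714) encodes LGP2, which binds double-stranded RNA like RIG-I and MDA5 but lacks their signalling domains, and was at 8.32, 8.88 and 8.48 CPM with DMSO and at 14.0, 16.3 and 15.5 CPM with AZD4573. All AZD4573 libraries lay above all DMSO libraries by more than 5 CPM, and DHX58 rose by 0.83 ± 0.079 (SE, n = 3 and 3; edgeR adjusted p = 4.29e-07). Scaled to the mitochondrial mRNAs, its log2 fold change was 0.09 (edgeR adjusted p = 0.33). IFIH1, which encodes MDA5 itself, was at 33.0 ± 1.68 and 32.4 ± 1.18 CPM (SD, n = 3 each), with an interval of -0.15 to 0.10 on the log2 scale. The helicase gene DDX60 had an interval of -0.04 to 0.24, and neither passed the test.

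Among further antiviral effectors, ZC3HAV1 (chr7:139043515-139132122) showed the rise with the smallest adjusted p. It encodes ZAP, which binds CpG-rich viral RNA and brings it to decay, and it was at 195, 208 and 207 CPM with DMSO and at 386, 407 and 371 CPM with AZD4573. All AZD4573 libraries lay far above all DMSO libraries, a 1.91-fold rise with a log2 fold change of 0.93 ± 0.046 (SE, n = 3 and 3; edgeR adjusted p = 7.93e-10), and it stayed positive at 0.20 under the mitochondrial scaling (edgeR adjusted p = 0.00537). ISG20, an exonuclease that degrades RNA, rose by 0.58 ± 0.106 (SE; edgeR adjusted p = 0.000229), from 4.96, 4.14 and 5.16 to 7.03, 7.12 and 7.11 CPM, and was at -0.16 under the mitochondrial scaling. It reached the fold threshold without DMSO replicate 1 (0.60) or DMSO replicate 3 (0.63) and with at least 10 counts in every library (0.61). RSAD2, also called viperin, which makes a chain-terminating nucleotide, fell by 0.42 ± 0.071 (SE; edgeR adjusted p = 0.000129), from 14.6 ± 0.339 to 10.9 ± 0.551 CPM (SD, n = 3 each).

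Of the remaining members, the IFI genes and the SP100 family moved both ways. IFI16 (chr1:158999968-159055155) was at 177, 177 and 175 CPM with DMSO and at 148, 153 and 148 CPM with AZD4573. The groups lay apart, and IFI16 fell by 0.24 ± 0.039 (SE; edgeR adjusted p = 8.85e-05). IFI44, an antiproliferative protein, fell by 0.53 (edgeR adjusted p = 0.000262), and without AZD4573 replicate 2 (-0.59) or with library size only (-0.64) it reached the fold threshold. IFI6, a protein of the endoplasmic reticulum and mitochondria that delays cell death, rose by 0.30 (edgeR adjusted p = 0.00803) and IFI35 by 0.25 (edgeR adjusted p = 0.0336), and they were at -0.44 and -0.50 under the mitochondrial scaling. IFI27 had 19, 19 and 26 counts with DMSO and 49, 29 and 46 with AZD4573, under 1 CPM in every library. Its groups did not overlap, and its log2 fold change of 1.37 had a 95% interval from 0.63 to 2.11 (edgeR adjusted p = 0.00252). Under the mitochondrial scaling it was 0.65 (edgeR adjusted p = 0.104). SP100, a protein of nuclear bodies, fell by 0.17 (edgeR adjusted p = 0.0109). Its relative SP110 rose by 0.39 (edgeR adjusted p = 6.62e-06) and was at -0.35 under the mitochondrial scaling.

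Many members stand next to each other in the genome, and position was not used to choose them. Within 200 kb, 15 pairs of successive members held 25 of the 44, and 12 pairs had both genes tested. The log2 ratio within the pair separated the groups for 11 of the 12, and HERC6 with HERC5 was the exception. Beside this stood 72.2% of 15275 adjacent pairs among all tested genes without a library at 0. Those were direct neighbours among the tested genes, whereas successive members may have other genes between them, so that the pairs are not quite alike. In 3 pairs the signs of the fold changes were opposite on the TMM scale, namely OAS3 with OAS2, SP110 with SP100 and MX2 with MX1, and none of these 3 was opposite under the mitochondrial scaling. OAS3 and OAS2 are 1934 bases apart on the same strand, and their log2 ratio went from 2.40 ± 0.097 to 3.02 ± 0.107 (SD, n = 3 each). IFIT2 and IFIT3 had a log2 ratio of -2.37 ± 0.524 with DMSO and of -0.52 ± 0.525 with AZD4573 (SD, n = 3 each), the largest shift of the 12, at under 3 CPM in every library. Each of the 11 pairs reached an exact permutation p of 0.1 (two-sided), which is the smallest possible here.

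**Figure D3:**
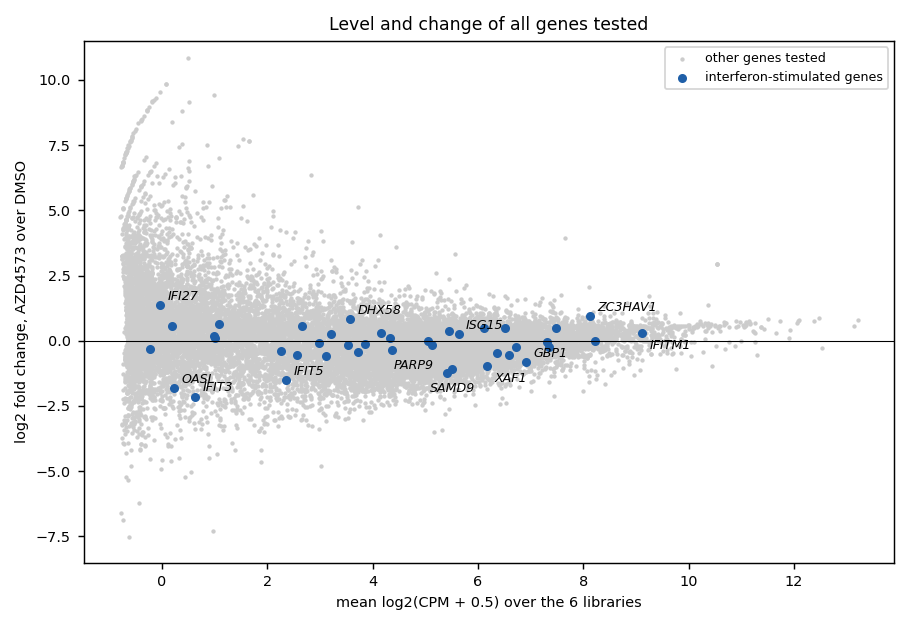
Log2 fold change (AZD4573 over DMSO, TMM scale) against the mean log2(CPM + 0.5) over the 6 libraries for all 17678 genes tested (grey) and the 41 tested members (blue, some named). The members lie within the cloud of the other genes at every level, with IFIT3 and OASL low and far below 0, ZC3HAV1 high at 0.93, and IFITM1 the most abundant at 0.30, which was -0.44 when scaled to the mitochondrial mRNAs.

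The change was set beside the level, the length and the promoters of the members, with no test. Across the 41 members, Spearman's rho of the log2 fold change was 0.05 with the mean level, -0.12 with the span of the gene and -0.11 with the merged exon length, beside -0.20, -0.10 and -0.11 across 17638 genes. These points share the 6 libraries and are not independent. Of the 20 tested members with an ISRE core in the promoter window, 9 passed the test as lower and 8 as higher on the TMM scale. Across all genes tested, the shares at any fold were 37.4% and 37.3%. The median log2 fold change of these 20 members was -0.09, with a range from -2.15 to 1.37. Of the 13 tested members with a window but no core, 6 passed as lower and 3 as higher, with a median of -0.10 and a range from -1.07 to 0.93. This split rests on a single start per gene and a single spacing of the core. The windows of OAS1, RSAD2, XAF1, TRIM25, IFI35 and SP110 hold GAAA repeats at a closer spacing, on 1 strand or the other. The core does not match these repeats, so that the members without a core include windows with a similar repeat. Among these members, XAF1 was called lower. The window of PARP9, at -1.07, begins at 122564735, beyond the end of its GENCODE model at 122564577. The 3 largest falls and the largest rise among members with a window thus belonged to promoters with a core. Of the windows printed above, those of IFIT3, IFIT5 and SAMD9 were chosen because their transcripts fell, so their direction was set by the choice. Those of ISG15 and IFITM1, chosen by level, stood before transcripts that rose on the TMM scale and turned negative under the mitochondrial scaling. IFIT3 and IFITM3 held 2 cores each, at -2.15 and 0.64 on the log2 scale, where the latter turned to -0.10 under the mitochondrial scaling.

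**Figure D4:**
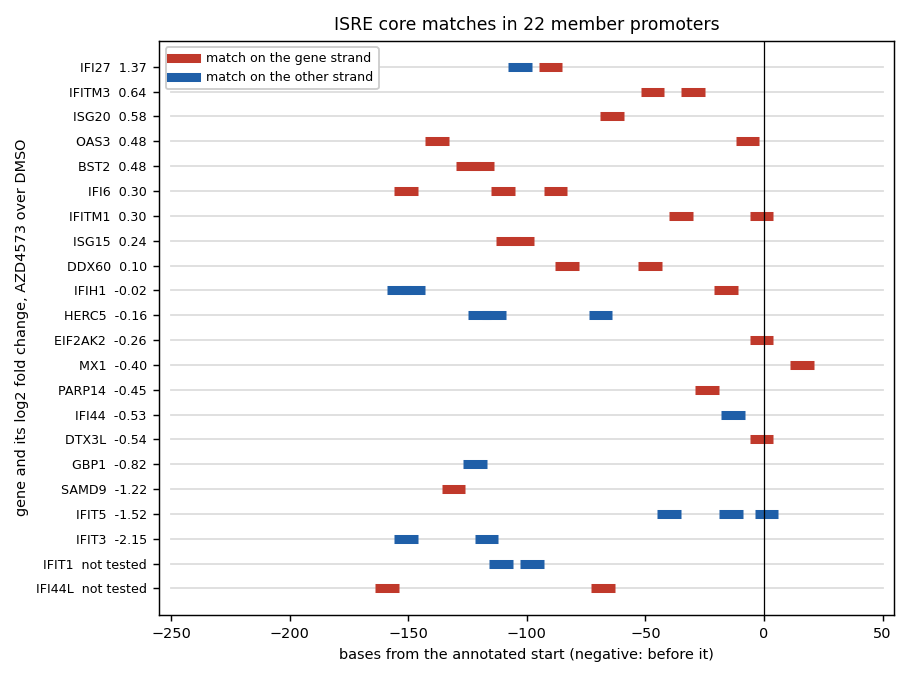
Positions of ISRE core matches in the 22 member promoters that hold one, in bases from the annotated start (0), with the 20 tested genes in order of their log2 fold change and the untested IFIT1 and IFI44L at the bottom (red, match on the strand of the gene; blue, on the other strand). Matches lie between 164 bases before the start and 20 bases after it, and they occur from IFI27 (1.37) to IFIT3 (-2.15), while every value above 0 other than that of IFI27 turned negative under the mitochondrial scaling.

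The upstream pathway was examined through 55 genes outside the 44, listed with earlier results of these data known. They comprised ligands, receptors, kinases, transcription factors, sensors and feedback inhibitors. Of these, 32 were tested, 12 (37.5%) were called lower, beside 23.7% of all genes, and 1 was called higher, beside 22.7%. At any fold, 22 (68.8%) passed the test as lower, beside 37.4% of all genes, and 5 (15.6%) as higher, beside 37.3%. Under the mitochondrial scaling, 31 of the 32 (96.9%) passed as lower, beside 67.2% of all genes, and IRF5 alone as higher. Of the 21 ligand genes, 18 had 0 counts in every library, among them IFNB1 and all genes for interferon-α on the list, which allows up to 0.059 CPM in the smallest library. IFNG was the only ligand tested, at 1.39, 0.819 and 1.07 CPM with DMSO and at 0.550, 0.439 and 0.492 CPM with AZD4573 (log2 fold change -1.15; edgeR adjusted p = 0.00164). Among the receptor chains, IFNAR1 was at 77.1, 74.9 and 70.8 CPM with DMSO and at 35.2, 32.0 and 31.4 CPM with AZD4573, a fall of 1.18 ± 0.057 on the log2 scale (SE; edgeR adjusted p = 7.45e-10). Its partner IFNAR2 fell by 1.03 ± 0.058 (SE; edgeR adjusted p = 2.66e-09). IFNLR1 fell by 2.21 ± 0.303 (SE; edgeR adjusted p = 1.73e-05), which rested on a low transcript, at 1.09 CPM with DMSO and 0.232 CPM with AZD4573 on average. IFNGR1, a chain of the interferon-γ receptor, fell from 20.8 ± 1.11 to 5.24 ± 1.25 CPM (SD, n = 3 each; edgeR adjusted p = 8.21e-09). Of the 6 receptor genes 5 fell, and IL10RB did not pass the test.

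The kinases and factors that act on the ISRE moved in different directions on the TMM scale. JAK1 (0.49) and TYK2 (0.56) rose on the TMM scale but were at -0.25 and -0.18 under the mitochondrial scaling. STAT2 rose from 25.3 ± 2.57 to 37.3 ± 1.46 CPM (SD, n = 3 each; log2 fold change 0.56, edgeR adjusted p = 8.98e-06) and was at -0.18 under that scaling (edgeR adjusted p = 0.0445). IRF9, the DNA-binding part of ISGF3, was at 17.4, 17.6 and 18.8 CPM with DMSO and at 6.35, 6.84 and 8.29 CPM with AZD4573. All AZD4573 libraries held less than 50% of the lowest DMSO library, and the log2 fold change was -1.32 ± 0.094 (SE; edgeR adjusted p = 2.53e-08). IRF1, which binds related sites, fell by 0.42 (edgeR adjusted p = 1.31e-05), whereas IRF7, at -0.08, did not pass the test. IRF5, a factor of myeloid and B cells, was called higher at 1.39 from 0.928 to 2.42 CPM on average. Of the sensors and adaptors, RIGI fell by 1.65, MYD88 by 1.06, CGAS by 0.89 and TBK1 by 0.73 on the log2 scale. Among the feedback inhibitors, USP18, which removes ISG15 and dampens the type I receptor, fell by 0.89 (edgeR adjusted p = 6.69e-07), and the phosphatase gene PTPN2 fell by 1.37. USP18 shares 23.1% of its 50-base runs with other genes.

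Scaling decided the direction of most rises but of none of the 8 falls. With library size as the only scaling, the median log2 fold change of the members was -0.20, beside -0.08 for all genes. Scaled to the mitochondrial mRNAs, 26 members (63.4%) were called lower, beside 53.4% of all genes, and 0 were called higher, beside 10%. The test was passed by 35 (85.4%) as lower, beside 67.2%, and by 1 (2.44%), ZC3HAV1, as higher, beside 12.1%. The median was -0.84, beside -0.71 for all genes. Of the 13 members that rose on the TMM scale, 10 turned negative in this way.

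**Figure D5:**
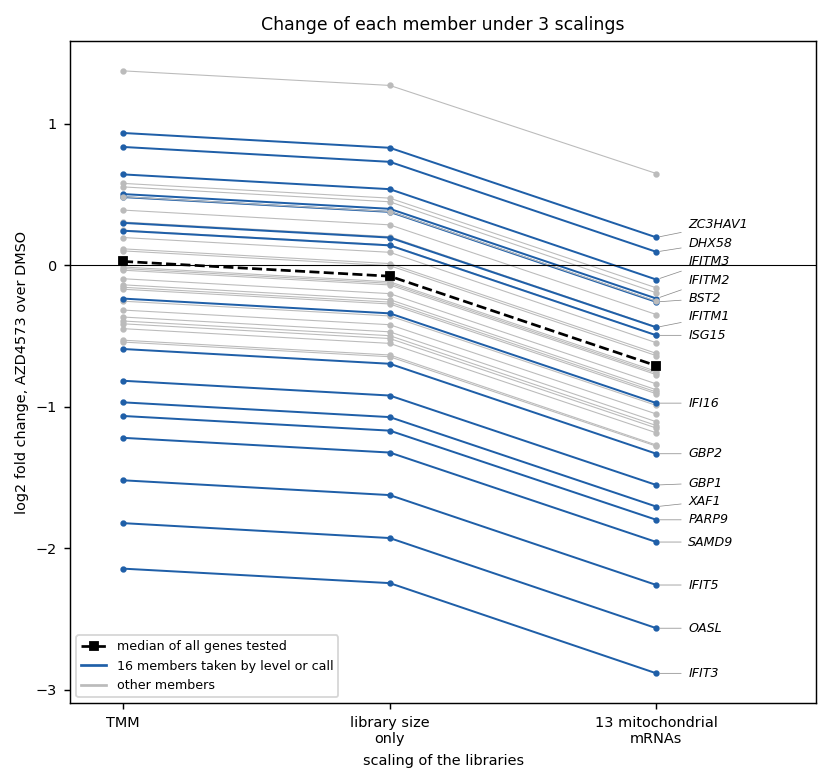
Log2 fold change of each tested member (AZD4573 over DMSO) under 3 scalings, TMM, library size only and the 13 mitochondrial mRNAs, with the 16 members taken by level or by call in blue and the median of all genes tested as a dashed black line. The lines run parallel, the median goes from 0.03 to -0.71, and IFITM1, IFITM2, IFITM3, BST2 and ISG15 cross 0 while ZC3HAV1 and DHX58 end at 0.20 and 0.09.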

How the data were processed

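Bulk RNA-seq of H9 cells covered 3 DMSO and 3 AZD4573 libraries, grouped by their titles. The authors deposited expected counts per gene, in whole numbers and without normalization, made with Cutadapt 2.3, STAR 2.7.8a and RSEM 1.3.3 per the labels, on GRCh38. RSEM ignores strand at its default. RNA was poly(A)-selected per the labels and depleted of rRNA per the supplement. The 5 reporter rows were left out.

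The counts were compared in R 4.3.3 with edgeR 4.0.16 (filter at a minimum count of 10, TMM, quasi-likelihood test, Benjamini-Hochberg adjustment over 17678 genes). A call required a 1.5-fold change or more at an adjusted p under 0.05. The SE is the log2 fold change divided by the root of F. CPM errors are SD. The procedure was tested on simulated data. Lengths and positions came from GENCODE release 44, and promoters from RefSeq. Members and lists were chosen with earlier results of these data known. All 44 members were accounted for, and library values went to the 6 members with the highest length-scaled levels and to the called members of at least 1 CPM, up to 8 falls and 8 rises; values of other members were added after they were seen. The pathway rule named 10 genes and all called ones. A gene that met it is not reported here.

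As alternatives, TMM was replaced by RLE factors, library size only or mitochondrial scaling, and the filter by none or by 10 counts or more in all libraries. Libraries were left out in turn, the replicate number was added as a block, DESeq2 1.42.0 was run, and the fold threshold was set to 2. MANE Select lengths were added after seeing the data. No library was a copy of another of its group (chi-square over its degrees of freedom, 5.62 to 21.5). Limits from counts cover counting error only, since PCR copies are not told apart.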

Additional observations from a re-analysis of the deposited data

How the results depend on the processing

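Of 208 values under the alternatives, for the 16 members taken by level or by call, 201 had the same sign and the same outcome of the test. The other 7 concerned scaling. With the mitochondrial mRNAs, IFITM1 (-0.44), IFITM2 (-0.24), BST2 (-0.26), ISG15 (-0.50) and IFITM3 (-0.10) reversed, of which IFITM3 also failed the test (edgeR adjusted p = 0.615), as did DHX58 (0.09), and with library size only ISG15 (0.14) failed it. Under the mitochondrial scaling, 26 members (63.4%) were called lower and 0 higher, beside 53.4% and 10% of all genes, and 27 pathway genes (84.4%) were called lower. The test was passed by 35 members as lower and 1 as higher (85.4% and 2.44%, beside 67.2% and 12.1% of all genes). A fold change of 2 left 5 members lower and 1 higher, and the share of all genes at that threshold was not taken. Pathway genes called higher numbered 3 with at least 10 counts in every library and 1 to 3 with libraries left out (3 without DMSO replicate 3, 2 without AZD4573 replicate 1), where TYK2 and STAT2 crossed the fold threshold. The median log2 fold change of the members was -0.20 with library size only, -0.84 with the mitochondrial mRNAs, -0.16 without a filter, -0.060 with at least 10 counts in every library and from -0.143 to -0.067 with libraries left out. The cause was not tested beyond the construction of each setting. With libraries left out, 7 to 9 members were called lower and 3 to 5 higher, of 41 or 42 tested. Of all genes, 4142 to 4337 were called lower and 3872 to 4119 higher, of 18095 to 18234 tested.

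Same-numbered libraries did not deviate together (correlations -0.0077, 0.089 and -0.050), so the numbers were not taken as pairs. With the replicate block, 8 members were called lower and 4 higher, as without it, and it changed no call on the members. Of all 17678 genes tested, 4162 were called lower and 3926 higher with the block. The depth of 52101868 to 76571157 counts leaves IFI44L and USP41 near or under the limit of 3 counts. IFIT1 was near that limit with AZD4573 (3, 3 and 2 counts) but above it with DMSO (15, 5 and 14). The depth also widens the intervals of IFIT2, MX2 and IFI27.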
